A study of Rattus norvegicus with 18 samples.

Results

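The genes described here are 52 genes of S phase, mitosis and cell cycle control, taken by symbol from a fixed list out of the authors' 3 tables of changed genes in rat left ventricle. Of the 52, 26 were held by at least one table, among 6588 genes that the 3 tables hold in all. Male rats of 3 groups were sequenced, 6 in each: ZSF1 obese rats, which are hypertensive with metabolic syndrome and form the group for HFpEF (heart failure in which the ejection fraction is preserved), ZSF1 lean rats, which are hypertensive, and Wistar Kyoto (WKY) rats, the control strain. The sources used here give neither age nor treatment, and the ZSF1 groups differ from WKY in strain as well as in disease. Polyadenylated RNA of left ventricle tissue was measured, so fewer cells of a type and less RNA per cell cannot be told apart.

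Each table gives one linear fold change and one adjusted p-value (false discovery rate) per gene, both from the authors' comparison of 6 rats with 6, and holds only genes that were changed to 2 times the level or more, or to 0.5 of it or less. Values per rat, mean levels and standard errors are not part of the tables, so sequencing depth is unknown, the adjusted p is the sole measure of error, and overlap between groups cannot be shown. A member that a table does not hold may have changed by less, may have missed the threshold or may not have been measured.

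The cell cycle runs from G1 through S phase, in which DNA is copied, and G2 to mitosis. D cyclins with Cdk4 and Cdk6, then E cyclins with Cdk2, release E2F factors from the retinoblastoma protein, which turns on the genes of DNA copying. Cyclin A and B with Cdk1 then drive mitosis, whose genes are held silent in resting cells by the DREAM complex and turned on late in the cycle by B-Myb and FoxM1. Adult rodent cardiomyocytes have for the most part left the cycle, while endothelial cells, fibroblasts and immune cells of the heart keep the ability to divide.

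In ZSF1 obese hearts the cell cycle genes that passed were almost all higher than in ZSF1 lean hearts, and most of them belong to mitosis. Of the 52 members 25 were higher and 1 was lower in the authors' deposited table, or 48.1% and 1.92%. Over 23154 protein-coding symbols of the rat RefSeq annotation, which also include genes silent in heart, the same table listed 12.0% as higher and 10.7% as lower. Among all 5700 genes that the table lists, 53.4% were higher. The median fold of the 25 higher members was 3.32, against 3.01 for all 3045 higher genes of that table. Set by phase, 18 of 26 members of G2 and mitosis were higher (69.2%), with a median fold of 4.13, against 4 of 20 members of G1 and S phase (20%), with a median fold of 2.58. The difference between these shares was not tested.

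**Figure D1:**
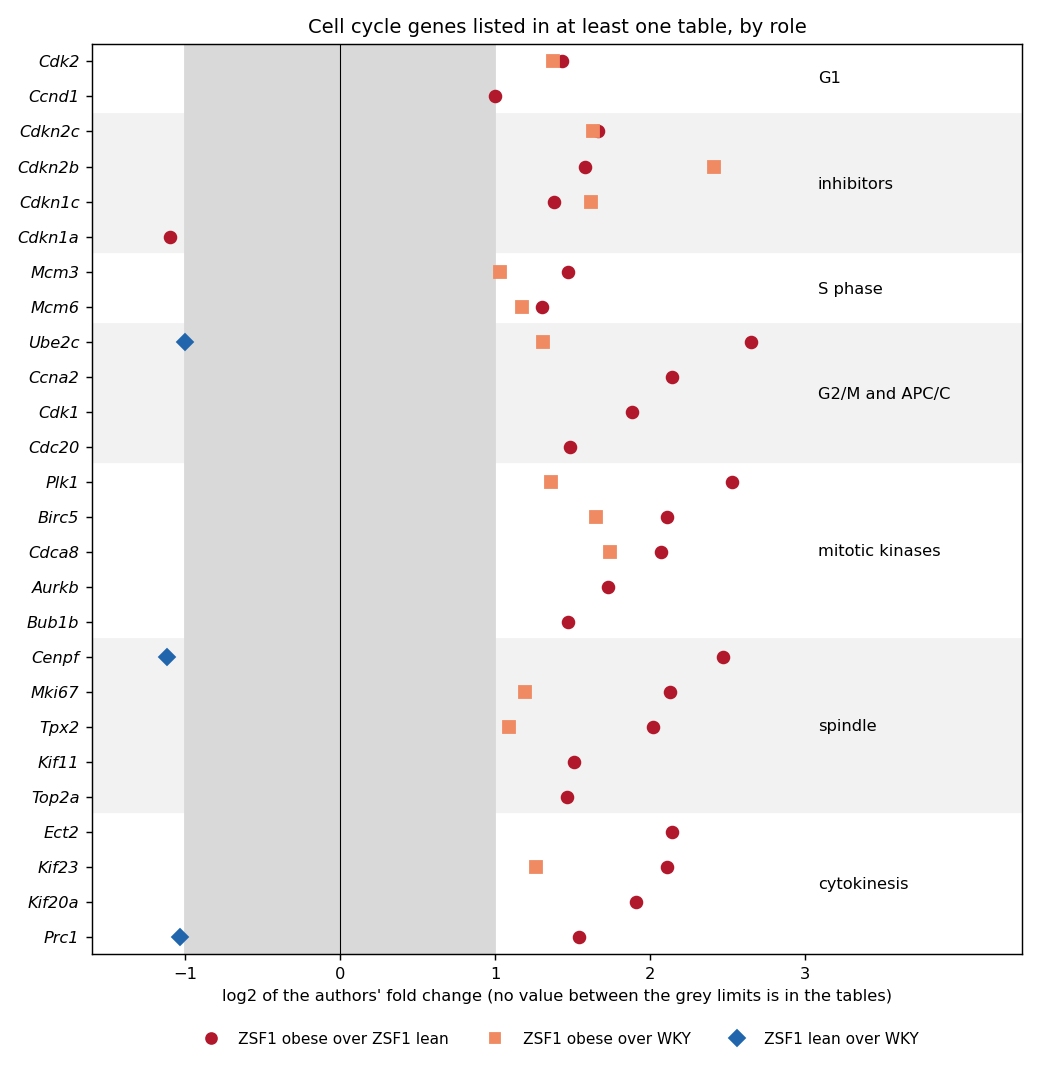
Log2 of the authors' fold change (x axis) for the 26 members that at least one table holds, grouped by role, with circles for ZSF1 obese over ZSF1 lean, squares for ZSF1 obese over WKY and diamonds for ZSF1 lean over WKY. Mitotic genes reach 2.65 in obese over lean hearts (Ube2c), the 3 diamonds lie left of 0, and Cdkn1a is the one circle on the left. The tables hold no value inside the grey band.

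In G1, few members passed. Cdk2, the kinase partner of cyclins E and A (ENSRNOG00000006469), was higher in obese than in lean hearts with a fold of 2.69 (adjusted p = 3.29e-23) and higher than in WKY hearts with a fold of 2.58 (adjusted p = 1.46e-14) in the authors' deposited tables. Its annotated span overlaps that of Pmel, which the authors' deposited tables list at 2.66 against lean and 2.85 against WKY hearts. Ccnd1, the cyclin D1 gene (ENSRNOG00000020918), stood right at the limit of the authors' deposited table, with a fold of 2.00 over lean hearts (adjusted p = 4.18e-11). Its fold ranked 3029 of the 3045 higher genes. The other 7 members of this group, the D cyclins Ccnd2 and Ccnd3, the E cyclins Ccne1 and Ccne2, the kinases Cdk4 and Cdk6 and the factor E2f1, were in none of the tables.

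Inhibitors of cyclin-dependent kinases moved in both directions against lean hearts. Cdkn2c, an INK4 inhibitor of Cdk4 and Cdk6 (ENSRNOG00000008956), had the smallest adjusted p of all members there, with a fold of 3.16 over lean hearts (adjusted p = 2.57e-29) and of 3.10 over WKY hearts (adjusted p = 1.03e-20) in the authors' deposited tables. Cdkn1c, a CIP/KIP inhibitor known as imprinted in mouse and human (ENSRNOG00000059500), was higher with folds of 2.60 over lean (adjusted p = 5.37e-14) and 3.07 over WKY hearts (adjusted p = 4.21e-21) in the authors' deposited tables. The INK4 gene Cdkn2b (ENSRNOG00000006735) had a fold of 2.99 over lean hearts (adjusted p = 0.00012) and of 5.32 over WKY hearts (adjusted p = 5.11e-06) in the authors' deposited tables. That value over WKY was the largest of any member in that comparison. Cdkn1a, the p53 target of the CIP/KIP family (ENSRNOG00000000521), was the one member that fell, to 0.467 of the lean level in obese hearts (adjusted p = 8.22e-07) by the authors' deposited table, and it was not listed against WKY. Cdkn1b and Cdkn2a were in none of the tables.

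Of the 11 S phase members, 2 passed, both of them subunits of the MCM helicase that opens DNA for copying. Mcm6 (ENSRNOG00000003703) was higher in obese hearts with folds of 2.46 over lean (adjusted p = 1.92e-13) and 2.25 over WKY (adjusted p = 4.7e-08) in the authors' deposited tables. Mcm3 (ENSRNOG00000012543) had folds of 2.77 over lean (adjusted p = 7.02e-12) and 2.04 over WKY (adjusted p = 8.2e-06) in the authors' deposited tables. The other helicase subunits Mcm2, Mcm4, Mcm5 and Mcm7, the sliding clamp gene Pcna, the ribonucleotide reductase genes Rrm1 and Rrm2, thymidylate synthase (Tyms) and thymidine kinase (Tk1) were in none of the tables.

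Of 6 genes that carry cells into and out of mitosis, 4 were higher than in lean hearts. Ube2c, the ubiquitin-conjugating enzyme of the anaphase-promoting complex (ENSRNOG00000015131), had the highest fold of all members, 6.28 over lean hearts (adjusted p = 7.84e-10), rank 225 of the 3045 higher genes of the authors' deposited table. RefSeq names 4 Ube2c pseudogenes, and how reads that fit several places were counted is not given, so its value is uncertain. The same limit applies to Cdk1, Kif11, Mki67, Prc1 and Tpx2, for each of which RefSeq names 1 pseudogene. By the authors' deposited table Ccna2, the cyclin A gene, was higher with a fold of 4.41 (adjusted p = 0.000392). Cdk1, the mitotic kinase, is listed by the authors' deposited table with a fold of 3.68 (adjusted p = 1.61e-06). The authors' deposited table lists Cdc20, which activates the anaphase-promoting complex, with a fold of 2.79 (adjusted p = 4.41e-06). The B cyclins Ccnb1 and Ccnb2, partners of Cdk1, were in none of the tables.

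Mitotic kinases and the chromosomal passenger complex followed the same direction, with 5 of 7 members higher than in lean hearts. Plk1, the polo-like kinase (ENSRNOG00000018815), had a fold of 5.78 (adjusted p = 2.35e-13) by the authors' deposited table, the smallest adjusted p among members of G2 and mitosis. The passenger complex was represented by its kinase Aurkb (fold 3.32, adjusted p = 0.000276), by Birc5, which encodes survivin (fold 4.32, adjusted p = 7.79e-06), and by Cdca8, which encodes borealin (fold 4.199, adjusted p = 9.63e-10), all by the authors' deposited table. The authors' deposited table lists Bub1b, a spindle checkpoint kinase, at 2.77 (adjusted p = 0.0104). Aurka, the spindle pole kinase, and the checkpoint kinase Bub1 were in none of the tables.

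Among genes of spindle, centromere and chromosomes 5 of 8 were higher than in lean hearts. Cenpf, a kinetochore protein (ENSRNOG00000003388), led with a fold of 5.54 (adjusted p = 7.61e-07) by the authors' deposited table. Mki67, the gene of the proliferation antigen Ki-67 (ENSRNOG00000028137), had a fold of 4.38 (adjusted p = 2.68e-08), and Tpx2, which builds spindle microtubules around chromosomes, one of 4.06 (adjusted p = 2.25e-09) by the authors' deposited table. The authors' deposited table lists the spindle motor gene Kif11 at 2.85 (adjusted p = 0.00252) and the topoisomerase gene Top2a at 2.75 (adjusted p = 0.0184), the largest adjusted p of all listed members over lean hearts. Kif11 overlaps Ide, which fell to 0.432 of the lean level in the authors' deposited table. The centromeric histone gene Cenpa, Nusap1 and Hmmr were in none of the tables.

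Cytokinesis, the splitting of the cell after mitosis, had 4 of 5 members higher than in lean hearts. Ect2, the exchange factor that starts the cleavage furrow, had a fold of 4.41 (adjusted p = 1.17e-05) by the authors' deposited table. Kif23 and Kif20a, motors of the central spindle, had folds of 4.32 (adjusted p = 2.93e-09) and 3.76 (adjusted p = 0.000171) by the authors' deposited table. Prc1, which bundles the microtubules of the central spindle (ENSRNOG00000013057), had a fold of 2.91 (adjusted p = 2.64e-05) by the authors' deposited table. Racgap1, the partner of Kif23, was in none of the tables.

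**Figure D2:**
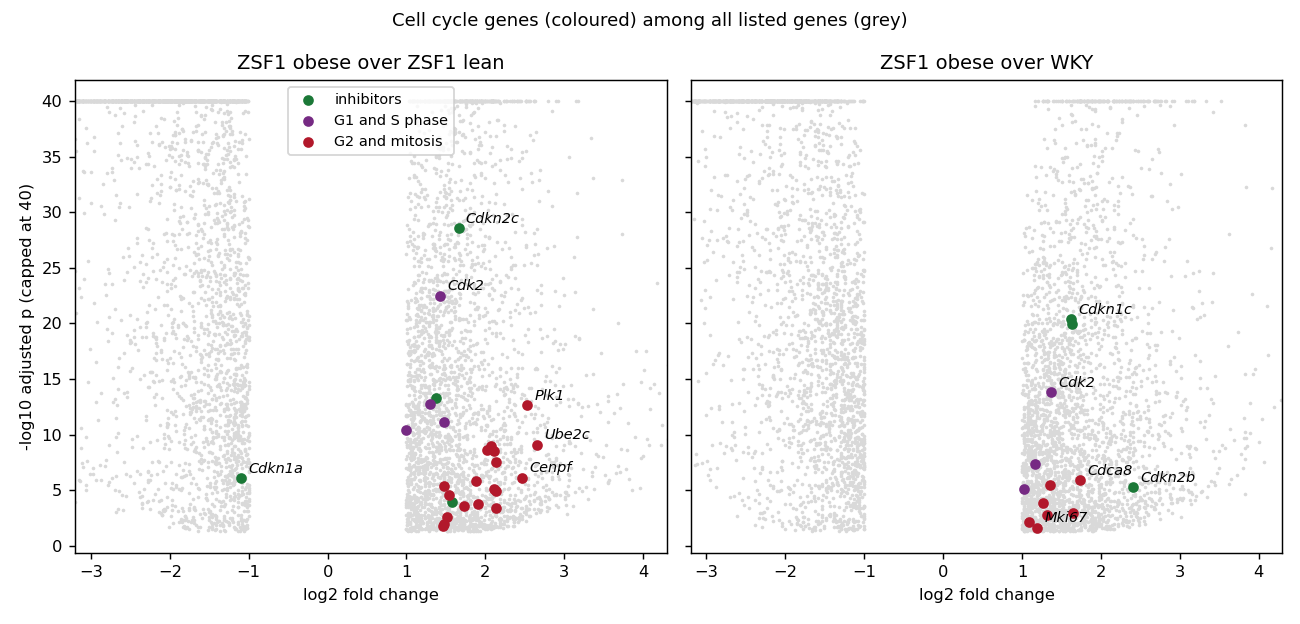
Log2 fold change (x axis) against the -log10 of the adjusted p, capped at 40 (y axis), for all listed genes (grey) and for inhibitors, members of G1 and S phase and members of G2 and mitosis (colours), with ZSF1 obese over ZSF1 lean on the left and ZSF1 obese over WKY on the right. Over lean hearts, Cdkn2c and Cdk2 have the smallest adjusted p-values of the members, and Ube2c, Plk1 and Cenpf the highest folds. Grey points beyond the x limits are not drawn.

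Against WKY hearts, fewer members passed and the 7 mitotic members listed had smaller folds than over lean hearts. In the authors' deposited table, members numbering 13 were higher (25%) and 0 were lower, against 12.3% and 10.6% of the protein-coding symbols, and 54.0% of all 5709 listed genes were higher. The median fold of the 13 was 2.57, against 3.05 for all 3084 higher genes. By phase, 7 of 26 members of G2 and mitosis were higher (26.9%), with a median fold of 2.48, and 3 of 20 members of G1 and S phase (15%), with a median fold of 2.25. All 13 are also listed over lean hearts, and both comparisons use the same obese rats.

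The mitotic members over WKY were Cdca8, with a fold of 3.34 (adjusted p = 1.33e-06), and Birc5, with a fold of 3.14 (adjusted p = 0.00114), in the authors' deposited table. Plk1 had a fold of 2.57 (adjusted p = 3.39e-06), Ube2c of 2.48 (adjusted p = 0.00166) and Kif23 of 2.40 (adjusted p = 0.000132) over WKY hearts in the authors' deposited table. Mki67 was listed at 2.28 (adjusted p = 0.0238) and Tpx2 at 2.13 (adjusted p = 0.00685) over WKY hearts in the authors' deposited table. Each of these 7 had a larger fold over lean than over WKY hearts. Another 13 members listed against lean were not listed against WKY, among them Cdk1, Ccna2, Cenpf, Ect2 and Top2a.

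ZSF1 lean against WKY hearts asks what the hypertensive strain shows without metabolic syndrome. In that comparison 0 members were higher and 3 were lower (5.77%) in the authors' deposited table, against 0.592% and 0.289% of the protein-coding symbols, and 63.9% of its 233 listed genes were higher. Cenpf fell to 0.46 of the WKY level in lean hearts (adjusted p = 1.45e-05), Prc1 to 0.49 (adjusted p = 1.33e-11) and Ube2c to 0.50 (adjusted p = 7.94e-05) by the authors' deposited table. All 3 belong to mitosis, and all 3 were higher in obese than in lean hearts. Prc1 and Ube2c lie at the edge of what this table holds. Its largest adjusted p was 0.000347, whereas the obese tables run to 0.0498 and 0.0499, so absence from it is read with care.

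Dividing a gene's fold over WKY by its fold over lean hearts gives a second, indirect value for lean over WKY. It comes from the same lean and WKY rats as the direct comparison, and from the obese rats, with no error of its own. On the log2 scale this difference had a median of 0.00 over the 4847 genes in both obese tables, with quartiles of -0.19 and 0.21. It was negative for 11 of the 13 members in both tables, but Mcm6 (-0.13), Cdk2 (-0.06) and Cdkn2c (-0.03) lay between these quartiles. Ube2c had a difference of -1.34, Plk1 of -1.17, Mki67 of -0.94, Tpx2 of -0.93 and Kif23 of -0.85. Of all 4847 genes, 0.867%, 1.2%, 2.23%, 2.29% and 2.64% lay at or below these values, in the same order. Among the inhibitors, Cdkn2c had a difference of -0.03, Cdkn1c of 0.24, just above the upper quartile, and Cdkn2b of 0.83, the highest of the 13. Thus Ube2c, Plk1, Mki67, Tpx2 and Kif23, which had the lowest differences of the 13, were ordered obese, then WKY, then lean by these quotients. This is a description with no test. Plk1, Mki67, Tpx2 and Kif23 were not listed in the direct comparison of lean with WKY hearts, so for them the order rests on the quotient alone. In the 79 genes that all 3 tables hold, the listed lean over WKY value had the same sign as the difference in all 79. It was nearer to 0 in all 79, with a median gap of 0.34 on the log2 scale. Both values use the same lean and WKY rats, and these genes had to pass the fold limit. The shared sign is therefore no separate check of the order. Ube2c was the one member among them, listed at 0.50 and given as 0.395 by the quotient.

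Further genes of the pathway, were taken from 7 lists by function, and the lists were not compared by a test. Their counts, like those of the marker lists further on, stand beside shares over all protein-coding symbols of 12.0% higher and 10.7% lower against lean hearts, and of 12.3% and 10.6% against WKY hearts. Of 68 other mitosis genes, 44 were higher (64.7%) and 4 were lower (5.88%) in obese than in lean hearts, with a median fold of 3.26 for those that were higher. Over WKY hearts the counts were 20 higher (29.4%) and 3 lower (4.41%). Those higher in both included the condensin gene Smc4, with folds of 2.85 over lean (adjusted p = 1.17e-66) and 2.41 over WKY (adjusted p = 8.27e-25), and Stmn1, which destabilises microtubules, with folds of 2.83 over lean (adjusted p = 6.35e-20) and 2.38 over WKY (adjusted p = 5.41e-13), in the authors' deposited tables. The 4 that fell against lean hearts were Cdc25a, a phosphatase that activates cyclin-dependent kinases, at 0.467, the condensin II gene Ncapg2 at 0.483, the kinetochore gene Cenph at 0.423 and Cks1b, a small partner of cyclin-dependent kinases, at 0.387 in the authors' deposited table. Ckap2, a spindle protein gene, was the one gene of this list in the lean table, at 0.44 of the WKY level (adjusted p = 9.95e-07) by the authors' deposited table. Over the 22 genes in both obese tables the log2 difference described above had a median of -0.24 and was negative in 18.

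Of 47 other genes of DNA replication, 10 were higher (21.3%) and 5 lower (10.6%) in obese hearts, the same counts against lean and against WKY. The share of lower genes was near that of all protein-coding symbols, 10.7% against lean hearts and 10.6% against WKY hearts. The largest fall over lean hearts was that of Mcm10, an initiation factor, at 0.134 (adjusted p = 1.31e-62) by the authors' deposited table. Rpa1, which coats single-stranded DNA, stood at 0.423, the origin gene Orc3 at 0.390 and the polymerase alpha gene Pola2 at 0.493 of the lean level in the authors' deposited table. Prim1, the primase gene, was higher with a fold of 3.16 over WKY hearts (adjusted p = 1.73e-26) by the authors' deposited table.

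Among 22 genes of the E2F, retinoblastoma and DREAM group, 3 were higher (13.6%) and 4 were lower (18.2%) in obese hearts, the same counts against lean and against WKY. The share of higher genes lies near the 12.0% of all protein-coding symbols against lean hearts. The 18.2% lower is above their 10.7% but rests on 4 genes and was not tested. The genes named here, and the ubiquitin ligases below, are given for their own values. Mybl2, the B-Myb gene, had folds of 7.21 over lean (adjusted p = 1.17e-10) and 4.89 over WKY hearts (adjusted p = 2.46e-06), and E2f2 of 3.60 (adjusted p = 1.17e-12) and 4.44 (adjusted p = 4.66e-15), in the authors' deposited tables. E2f6, a repressor of the E2F family, stood at 0.193 of the lean level, E2f3 at 0.274 and Lin52, a DREAM subunit, at 0.178 in the authors' deposited table. Foxm1 was in none of the tables. Mybl2, Foxm1 and Skp2, like Cenph and Cks1b above, were picked after their values were seen. For ubiquitin ligases of the cycle, 2 of 23 genes were higher (8.7%) and 3 lower (13%) than in lean hearts, near the shares of all symbols. Against WKY hearts 2 were higher (8.7%) and 4 lower (17.4%), beside 12.3% and 10.6% of all symbols. The anaphase-promoting genes Cdc27 and Anapc7 stood at 0.369 and 0.457 of the lean level by the authors' deposited table. Skp2, which targets inhibitors for breakdown, had a fold of 3.73 over lean hearts by the authors' deposited table.

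Genes of p53 and growth arrest gave 4 higher and 4 lower of 20 against lean hearts (20% each), and 5 (25%) and 4 (20%) against WKY hearts, beside 12.0% and 10.7% of all protein-coding symbols against lean and 12.3% and 10.6% against WKY hearts. Bax was higher with a fold of 2.91 (adjusted p = 8.75e-38) and Sesn1 lower at 0.270 of the lean level (adjusted p = 5.32e-42) by the authors' deposited table, both known p53 targets, as is Cdkn1a. Phlda3 was higher than in WKY hearts both in obese rats, with a fold of 4.03 (adjusted p = 1.47e-45), and in lean rats, with a fold of 2.04 (adjusted p = 1.07e-28), in the authors' deposited tables. Gadd45g was the other gene of this list in the lean table, with a fold of 2.23 over WKY hearts by the authors' deposited table. Cyclins and kinases with roles mostly outside the cycle gave 3 higher (10%) and 2 lower (6.67%) of 30 against lean hearts. Against WKY hearts they gave 3 higher (10%) and 5 lower (16.7%). The shares of higher genes lie near those of all protein-coding symbols, while the 16.7% lower is above their 10.6%. By adjusted p they were led by Ccnl1, of splicing, with a fold of 3.51 over lean hearts, and by Cdk16, at 0.493 of the WKY level, in the authors' deposited tables. Of 12 genes often linked to senescence, 5 were higher than in lean (41.7%) and 4 than in WKY hearts (33.3%) with 0 lower, led by Igfbp7 with folds of 2.68 and 3.41 and including Timp1 with 8.34 and 9.58 in the authors' deposited tables.

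**Figure D3:**
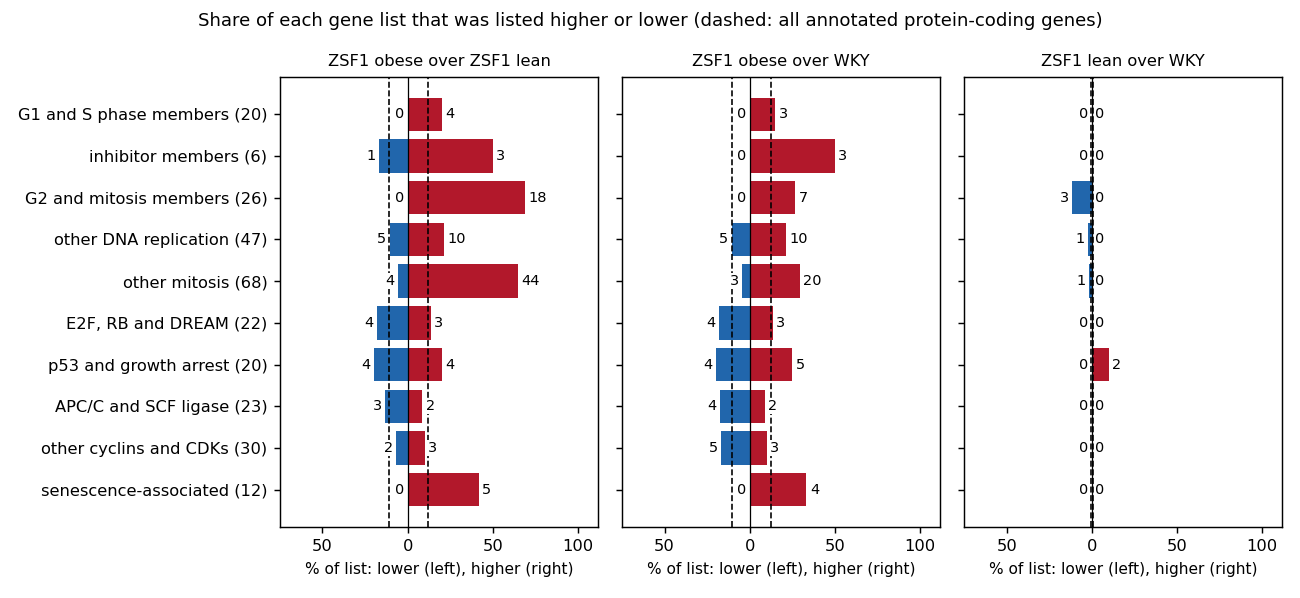
Share of each gene list (list size in brackets) that the authors' tables hold as higher (right) or lower (left), with counts at the bar ends, for ZSF1 obese over ZSF1 lean, ZSF1 obese over WKY and ZSF1 lean over WKY. Dashed lines mark the same shares of all annotated protein-coding genes. Mitosis lists reach 69.2% and 64.7% over lean hearts and 26.9% and 29.4% over WKY hearts.

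Promoters are shown because members of mitosis moved together and such genes are known to share a short element, the cell cycle genes homology region (CHR), which the DREAM complex and B-Myb with FoxM1 use. The CHR was searched as TTTGAA, the NF-Y element as CCAAT and the E2F element as TTTGGCGC, TTTCGCGC, TTTCCCGC or TTTGCCGC, each on both strands, in RefSeq windows from 250 bases before to 50 bases after the annotated start (build GRCr8, whereas the tables were made on Rnor_6.0). Windows were held for 39 of the 52 members. The first 5 windows below are those of members higher than in both lean and WKY hearts that hold a CHR and a CCAAT match, and the last is that of Mcm6, for its E2F match. They are Plk1 at chr1:186147408-186147707 on the plus strand, Cdca8 at chr5:142483150-142483449 on the minus strand, Kif23 at chr8:71320535-71320834 on the minus strand, Mki67 at chr1:199952544-199952843 on the minus strand, Birc5 at chr10:103571896-103572195 on the plus strand and Mcm6 at chr13:42404303-42404602 on the minus strand. Each is printed 5′ to 3′ in the direction of its gene, with all matches of the 3 elements in capitals.
Plk1: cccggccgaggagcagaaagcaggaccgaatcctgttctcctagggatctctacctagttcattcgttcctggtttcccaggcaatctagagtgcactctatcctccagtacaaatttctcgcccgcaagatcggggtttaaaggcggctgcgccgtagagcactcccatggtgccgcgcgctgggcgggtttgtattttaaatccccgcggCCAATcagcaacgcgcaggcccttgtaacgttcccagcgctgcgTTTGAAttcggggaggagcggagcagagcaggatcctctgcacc
Cdca8: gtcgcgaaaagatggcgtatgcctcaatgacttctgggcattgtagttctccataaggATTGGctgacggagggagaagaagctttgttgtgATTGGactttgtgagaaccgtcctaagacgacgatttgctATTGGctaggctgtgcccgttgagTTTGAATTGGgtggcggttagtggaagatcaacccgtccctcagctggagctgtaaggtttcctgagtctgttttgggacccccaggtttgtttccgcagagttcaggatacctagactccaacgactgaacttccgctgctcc
Kif23: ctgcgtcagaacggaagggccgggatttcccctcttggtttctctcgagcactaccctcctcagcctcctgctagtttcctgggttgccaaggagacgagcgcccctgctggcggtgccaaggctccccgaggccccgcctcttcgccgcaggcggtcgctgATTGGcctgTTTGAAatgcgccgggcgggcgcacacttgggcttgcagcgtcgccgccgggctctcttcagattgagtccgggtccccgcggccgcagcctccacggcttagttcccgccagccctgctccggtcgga
Mki67: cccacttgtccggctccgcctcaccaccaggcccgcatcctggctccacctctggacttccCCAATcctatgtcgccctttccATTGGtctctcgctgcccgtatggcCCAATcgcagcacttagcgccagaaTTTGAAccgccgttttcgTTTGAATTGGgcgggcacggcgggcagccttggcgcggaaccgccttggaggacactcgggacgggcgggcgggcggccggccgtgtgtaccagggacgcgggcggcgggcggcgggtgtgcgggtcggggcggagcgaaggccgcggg
Birc5: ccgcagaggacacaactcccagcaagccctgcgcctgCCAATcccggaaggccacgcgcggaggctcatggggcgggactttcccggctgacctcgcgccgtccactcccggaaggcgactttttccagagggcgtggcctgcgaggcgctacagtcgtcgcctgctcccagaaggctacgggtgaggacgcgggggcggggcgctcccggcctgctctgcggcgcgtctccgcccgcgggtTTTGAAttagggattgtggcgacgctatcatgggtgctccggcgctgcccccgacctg
Mcm6: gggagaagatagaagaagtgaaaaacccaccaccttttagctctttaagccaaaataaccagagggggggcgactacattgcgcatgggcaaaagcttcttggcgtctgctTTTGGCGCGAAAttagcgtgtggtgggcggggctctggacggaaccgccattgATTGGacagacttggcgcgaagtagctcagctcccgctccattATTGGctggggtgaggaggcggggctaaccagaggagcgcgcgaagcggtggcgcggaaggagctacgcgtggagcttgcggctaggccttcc

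A CHR match was held by 13 of the 19 windows of members higher than in lean hearts (68.4%), by 5 of 19 windows of members not listed there (26.3%), by 14.1% of 2192 windows of all higher genes and by 18.1% of all 27457 windows. For CCAAT the shares were 84.2%, 57.9%, 34.3% and 37.7%, and for E2F 15.8%, 21.1%, 2.87% and 2.25%, in the same order. Median GC content was 59.7%, 60%, 58.5% and 52.3% in these sets. The higher and the unlisted members differ in role. Of G2 and mitosis members 18 of 26 were higher, of G1 and S phase members 4 of 20. The gap between their shares of matches therefore cannot be told apart from role. By role, the CHR was in 6 of 7 windows of spindle, centromere and chromosome genes and in 3 of 4 of cytokinesis genes, but in 1 of 9 of S phase genes, while the E2F element was in 6 of 9 S phase windows and in none of the windows of those genes or of the mitotic kinases. Counted from the annotated start, the CHR began at position -8 in Birc5, at -18 in Prc1, at -22 in Top2a, at 7 in Plk1 and at 3 in Cenpf. In Cdk1 it began at -72 and at -16. Of the 16 matches in higher members 8 (50%) began within 50 bases of the start, against 22.8% of 3758 matches in protein-coding windows. In Cdca8 and Mki67 a CHR shared 1 base with a CCAAT on the other strand, written TTTGAATTGG above. The 5 unlisted members with a CHR were Ccnb2, Hmmr, Nusap1, Cenpa and Mcm2. Their matches began at -214 and -43 in Ccnb2, at -46 in Hmmr and at 10 in Nusap1. They began at -116 in Cenpa and at -215 and -175 in Mcm2. A match near the start was thus not particular to the higher members, and position too cannot be told apart from role. In Mcm6 the capitals TTTGGCGCGAAA hold 2 overlapping E2F matches, one on each strand. A match is a run of letters and not a shown binding site, and the difference between shares was not tested.

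**Figure D4:**
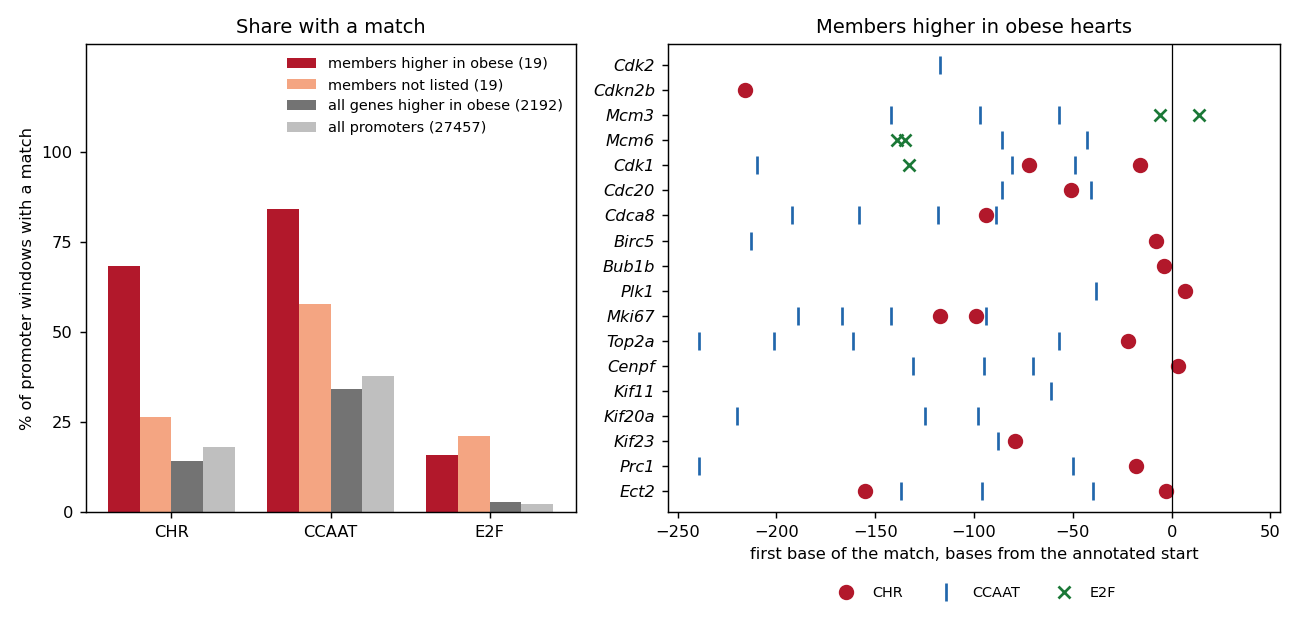
Left, percent of promoter windows with at least one match of each element (y axis) in 4 sets of genes, with set sizes in brackets. Right, first base of each match relative to the annotated start (x axis) in members higher in ZSF1 obese than in ZSF1 lean hearts. The CHR share is 68.4% in those members and 18.1% in all windows. A CHR match lies beside the start in Birc5, Bub1b, Plk1, Cenpf and Ect2, and Ect2 has another at -155.

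Markers of several cell types were, like the mitotic genes, higher in obese hearts, and their part in these results was not tested. The count of higher G2 and mitosis members was 18 over lean and 7 over WKY hearts. Among the marker lists, only those of neutrophils and B cells also had fewer higher genes over WKY than over lean hearts. These counts depend on the fold limit. The median fold of the higher markers was also smaller over WKY hearts in other lists. These were erythroid cells (5.44 over lean and 2.36 over WKY), fibroblasts (4.2 and 3.23), endothelium, and T and NK cells (3.48 and 2.95). It was larger over WKY hearts for macrophages, mural cells (3.2 and 6.28) and mesothelium (3.46 and 3.58). Of all protein-coding symbols, 12.0% were higher and 10.7% lower against lean hearts, 12.3% and 10.6% against WKY hearts, and 0.592% and 0.289% in lean against WKY hearts. Of 10 markers each, 9 of endothelium and 9 of macrophages were higher in obese than in lean hearts, and 9 and 10 were higher than in WKY hearts, with median folds of 3.51 and 3.32 over lean and 3.01 and 4.53 over WKY. For fibroblasts the counts were 5 over lean and 7 over WKY, and for T and NK cells likewise 5 and 7 of 10, with 0 lower. Cardiomyocyte markers were lower in 5 of 10 cases and higher in 0 in both comparisons, with median folds of 0.247 and 0.213, and Atp2a2, the calcium pump gene, had the smallest adjusted p at 0.084 of the lean level in the authors' deposited table. Mural cell markers gave 3 higher (30%) and 2 lower (20%) in both, mesothelial markers 1 of 6 higher (16.7%) against lean and 1 higher and 1 lower against WKY, and erythroid markers 2 of 6 higher (33.3%) and 1 lower against lean and 3 higher against WKY.

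Among the marker lists, the counts of neutrophil markers changed most between the comparisons. Of 8, 5 were higher in obese than in lean hearts (62.5%), with folds of 6.15 to 22.8, 1 was higher than in WKY hearts (12.5%, near the 12.3% of all symbols), and 4 were lower in lean than in WKY hearts (50%). Csf3r, a granulocyte receptor, had a fold of 10.3 over lean and of 2.099 over WKY hearts in obese rats, and stood at 0.33 of the WKY level in lean rats, in the authors' deposited tables. S100a9, a neutrophil protein, had a fold of 22.8 over lean hearts in obese rats and also stood at 0.33 of the WKY level in lean rats in the authors' deposited tables. B cell markers were higher in 5 of 6 cases over lean and 2 of 6 over WKY hearts, among them Cd79b with a fold of 3.43 over lean hearts in the authors' deposited table. In lean against WKY hearts, markers of cardiomyocytes, fibroblasts, endothelium, mural cells, macrophages, T and NK cells, B cells and mesothelium were not listed. Of the erythroid markers, 1 was higher there (Slc4a1, fold 5.50) and 1 lower (Epb42, 0.43 of the WKY level). In obese rats Epb42 had folds of 6.68 over lean and 2.07 over WKY hearts by the authors' values. Slc4a1 went the other way, at 0.374 of the lean level and a fold of 2.36 over WKY hearts.

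**Figure D5:**
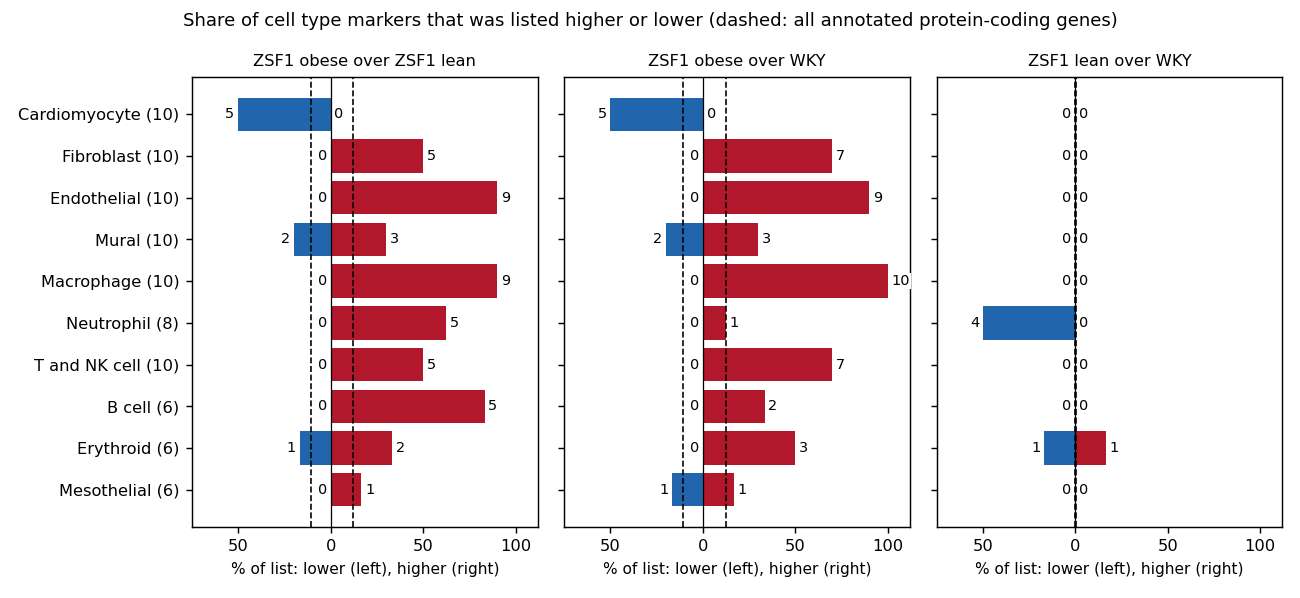
Share of the markers of each cell type (list size in brackets) that the authors' tables hold as higher (right) or lower (left), with counts at the bar ends, for ZSF1 obese over ZSF1 lean, ZSF1 obese over WKY and ZSF1 lean over WKY. Endothelial and macrophage markers were higher in obese rats in 9 or 10 of 10 cases, and 4 of 8 neutrophil markers were lower in lean than in WKY hearts.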

How the data were processed

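Per the labels' protocols, total RNA of left ventricle was isolated with a Qiagen kit and polyadenylated RNA was made into stranded TruSeq libraries for HiSeq sequencing. The submitters' processing notes name the genome build Rnor_6.0, HISAT2 2.1.0, HTSeq 0.11.2 and DESeq2 1.22.2, without settings or order. Per the file headers, the deposited tables give a linear fold change, a ratio of the group named first over the other, plus an FDR, an adjusted p-value from the authors. Both were used as deposited. The tables hold no counts, so depth is unknown, no test of this report's own was made, and neither a count test, as foreseen for read counts, nor leaving out rats could be run. The sources used here name no library batch, so a batch cannot be told apart from a group.

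Members were matched by symbol, and no member's symbol was repeated in a table. Counts, medians and log2 values were computed with Python 3.11.15, pandas 2.3.3 and numpy 2.4.6, and the counting was checked on tables with planted folds. Members not listed anywhere and all listed members are named. Other lists are named by up to 4 genes (2 for cell types) with the smallest adjusted p, and genes outside this rule were picked after their values were seen. The members and lists were chosen with earlier results of these data known. Of the 26 listed members, 9 overlap another annotated gene in GRCr8 and 6 have a named pseudogene (Cdk1, Kif11, Mki67, Prc1, Tpx2 and Ube2c), and the strand setting of the counting is not given. Gene names and promoters are RefSeq's, assembly GRCr8. Stricter limits on adjusted p and fold were tried as alternatives.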

Additional observations from a re-analysis of the deposited data

How the results depend on the processing

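Stricter limits only leave out deposited values, so they change counts and medians but cannot turn a direction. Against lean hearts, 23 and 22 members stayed higher at an adjusted p under 0.01 and under 0.001, against 25 without that limit. At a fold of at least 3, 14 were higher and 0 lower, and at 4, 10 and 0, so the single fall, Cdkn1a, ends under either fold limit. Against WKY, 12 and 9 of 13 were higher at the stricter adjusted p, 5 at a fold of 3 and 1 at a fold of 4 (Cdkn2b). In lean against WKY hearts, the limits on adjusted p could remove no gene, because the largest adjusted p listed there was 0.000347. Of the 3 lower members, 0 were left at either fold limit. The median log2 fold of listed members was 1.69 against lean (1.80 at an adjusted p under 0.01 and 1.66 without the most changed member), 1.36 against WKY (1.37 and 1.33) and -1.03 in lean against WKY (-1.01 without the most changed member). Leaving out a rat needs values per rat and was not run. No paired analysis was possible because the tables hold no values per rat. The depth behind a value is unknown.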

Other observations

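Next to Cdkn1c in the reference order stand Kcnq1 and Slc22a18, genes chosen after their values were seen. Slc22a18, a transporter gene, was higher in obese hearts with folds of 2.77 over lean (adjusted p = 7.42e-39) and 3.81 over WKY hearts (adjusted p = 2.61e-37) in the authors' deposited tables. Kcnq1, a potassium channel gene, stood at 0.193 of the lean level (adjusted p = 1.49e-65) and 0.178 of the WKY level (adjusted p = 2.55e-59) in obese hearts in the authors' deposited tables. Cdkn1c itself was higher in both comparisons, so these neighbours moved in different directions.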
